A study of Homo sapiens with 12 samples.

Results

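The globins HBB, HBD, HBE1 and HBA1 and the erythroid genes ALAS2, SLC4A1, CA2, FAM46C and BPGM were examined in 6 lists of RNA immunoprecipitation sequencing (RIP-seq) peaks. These 9 genes were chosen from earlier results on these same lists, and their peaks are those listed under the gene's name, so that they make 9 of the 10830 gene names with a peak in any list. Because the choice rests on peaks in these lists, their presence and fold enrichments are given as a description and no test was made on them.

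The study immunoprecipitated RNA bound to the methyltransferase METTL16 and to the translation initiation factor subunits eIF3a and eIF3b from HepG2 cells, a line established from a human liver tumour. Each of 3 stable lines carried one 3XFlag-tagged protein, METTL16 from the pmiRNA1 vector and eIF3a or eIF3b from pSIN4, so that all groups overexpressed a tagged protein. Cells were UV cross-linked before lysis. METTL16 and eIF3b were pulled down with a Flag antibody and eIF3a, per the labels, with an antibody to eIF3a itself, so antibody and protein cannot be told apart for that group. There were 2 RIP samples and 2 input samples for each protein, 12 in all, and 1 peak list for each of the 6 RIP samples. The lists held between 12921 and 21733 peaks on 5226 to 8166 genes. They carry fold enrichments of RIP over input and p-values but no read counts, so the depth behind a peak is unknown and the levels of these RNAs in the cells were not measured here. A list from a control antibody was not used here.

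Globin chains bind heme and carry oxygen in red cells. The β-like genes HBB (adult β), HBD (adult δ) and HBE1 (embryonic ε) lie in one cluster on chromosome 11, and the α-like genes, HBA1 among them, in another on chromosome 16. ALAS2 is the erythroid form of the first enzyme of heme synthesis, SLC4A1 is the band 3 anion exchanger of the red cell membrane, CA2 is a carbonic anhydrase, BPGM makes 2,3-bisphosphoglycerate, which lowers the oxygen affinity of hemoglobin, and FAM46C (current symbol TENT5C) is a cytoplasmic poly(A) polymerase. None is a defining gene of liver cells.

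The second exon of the β-like globins is shown because it was under a peak in HBB, HBD and HBE1 in the same 4 lists, and because its likeness between the 3 genes bears on how surely a peak is assigned to one of them. All 3 exons are coding throughout, 223 bases long and on the minus strand of GRCh38, at chr11:5226577-5226799 for HBB, chr11:5233991-5234213 for HBD and chr11:5269454-5269676 for HBE1. Sequences are from GENCODE release 44 transcripts, 5′ to 3′, and capitals mark the 54 positions at which the 3 are not all the same.
HBB: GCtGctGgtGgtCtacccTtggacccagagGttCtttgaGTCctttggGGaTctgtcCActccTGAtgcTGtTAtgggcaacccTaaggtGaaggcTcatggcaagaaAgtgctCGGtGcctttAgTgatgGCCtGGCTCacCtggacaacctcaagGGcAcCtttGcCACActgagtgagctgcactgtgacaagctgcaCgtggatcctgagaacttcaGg
HBD: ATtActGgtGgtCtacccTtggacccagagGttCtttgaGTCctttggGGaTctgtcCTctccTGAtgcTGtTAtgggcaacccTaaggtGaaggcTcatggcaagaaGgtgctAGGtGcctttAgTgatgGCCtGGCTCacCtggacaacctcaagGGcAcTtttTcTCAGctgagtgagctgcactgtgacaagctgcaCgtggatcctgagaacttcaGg
HBE1: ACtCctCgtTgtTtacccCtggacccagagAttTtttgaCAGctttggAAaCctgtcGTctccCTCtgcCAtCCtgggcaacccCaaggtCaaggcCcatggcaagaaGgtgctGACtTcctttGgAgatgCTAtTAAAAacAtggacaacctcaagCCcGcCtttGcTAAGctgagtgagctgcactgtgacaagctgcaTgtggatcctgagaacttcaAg

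Exon 2 of HBB and HBD was identical at 94.6% of its bases, with a longest identical run of 54 bases, whereas HBB and HBE1 shared 77.6% with a longest run of 29 bases. Over the coding sequence, HBB was 92.8% identical to HBD and 79.1% identical to HBE1. In windows of 50 bases along the canonical transcript (the one GENCODE takes as the gene's representative), 2.94% of HBB windows also occurred in another gene, in each case HBD. None of the 100-base windows of HBB, HBD or HBE1 occurred in a gene at another place. HBA1 differed, with 81.6% of its 50-base windows and 79.7% of its 100-base windows also present in HBA2, whose coding sequence is identical to that of HBA1. Reads no longer than these windows cannot be told apart between the 2 α-globin genes over most of the transcript, and the HBA1 peaks are uncertain as to gene. No window of either length in ALAS2, CA2, FAM46C or BPGM was found in another gene.

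All 9 genes had a peak in METTL16 replicate 1, METTL16 replicate 2 and eIF3b replicate 1. In eIF3a replicate 1, 6 of 9 had one, and in eIF3a replicate 2 and eIF3b replicate 2 there were 0 of 9. Among 20056 protein-coding genes, 28.9% had a peak in METTL16 replicate 1, 31.4% in METTL16 replicate 2, 40.4% in eIF3a replicate 1, 25.9% in eIF3a replicate 2, 39.9% in eIF3b replicate 1 and 37.5% in eIF3b replicate 2. A peak in both METTL16 lists and eIF3b replicate 1 with none in eIF3a replicate 2 or eIF3b replicate 2 was found in 1.73% of protein-coding genes. These shares are background only, since the 9 genes were chosen on the same lists. The eIF3b replicates, same in protein and antibody, thus split 9 against 0, and the eIF3a replicates 6 against 0, while the METTL16 replicates each held all 9.

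**Figure D1:**
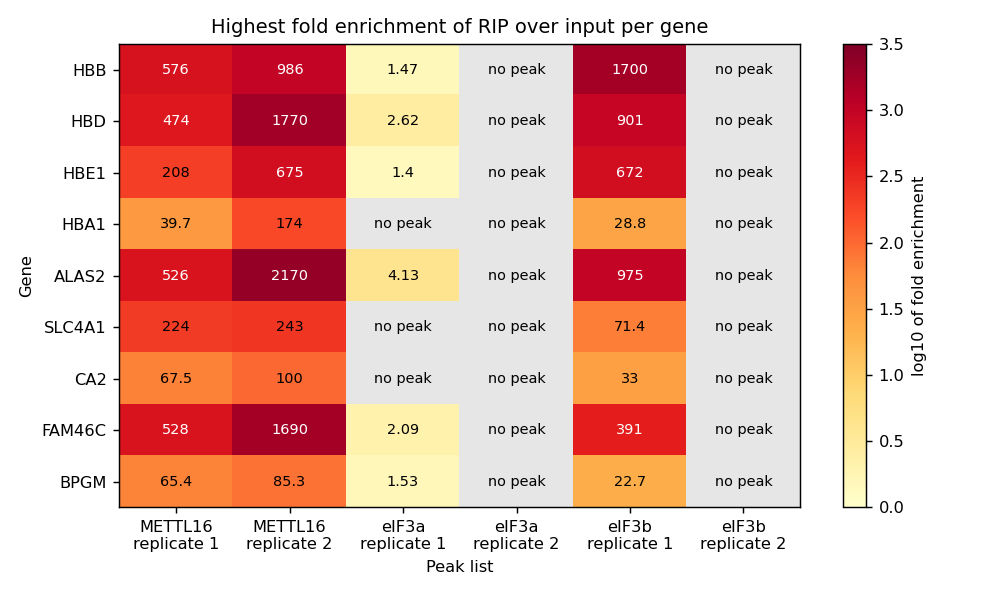
Highest fold enrichment of RIP over input for each gene (vertical axis) in each of the 6 peak lists (horizontal axis), coloured by log10 of the fold, with grey for no peak. Both METTL16 lists and eIF3b replicate 1 run from 22.7-fold to 2170-fold, eIF3a replicate 1 stays at or below 4.13-fold, and eIF3a replicate 2 and eIF3b replicate 2 have no peak on any of the 9 genes.

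The 41 peaks on these genes were 10 in each METTL16 list, 9 in eIF3a replicate 1 and 12 in eIF3b replicate 1. Their fold enrichments ran from 39.7 to 576 (median 216) in METTL16 replicate 1 and from 85.3 to 2170 (median 476) in METTL16 replicate 2. They ran from 22.7 to 1700 (median 89.2) in eIF3b replicate 1, but from 1.4 to 4.13 (median 1.58) in eIF3a replicate 1. The median over the 9 genes of each gene's highest fold was 224 in METTL16 replicate 1, 675 in METTL16 replicate 2 and 391 in eIF3b replicate 1, where the median over all genes with a peak was 4.06, 4.24 and 4.64. In eIF3a replicate 1 the order was turned, with a median of 1.81 over the 6 genes with a peak against 4 over all genes. In METTL16 replicate 2 the fold was above that of METTL16 replicate 1 for each of the 9 genes. A fold depends on the input reads under the peak, which the lists do not give, and which input library each list was called against is not stated in the sources used here, so the error of a single fold is unknown.

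Every one of the 41 peaks lay on annotated exons of the canonical transcript, with 0 bases outside them. The peak caller scans annotated exons only, so peaks in introns could not have been listed. Of their 24832 bases, 89.9% were coding, 8.26% lay in a 3′ untranslated region and 1.82% in a 5′ untranslated region. The coding share was 89.9% and 88% in the METTL16 lists, 93.6% in eIF3a replicate 1 and 90.9% in eIF3b replicate 1. There were 36 peaks that ran over several exons and 5 that stayed in 1. Of the 55 exons of the 9 genes, 42 were touched by a peak in at least 1 list and 13 were not, of which 10 belonged to SLC4A1. The other 3 were the first exons of ALAS2, CA2 and BPGM.

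**Figure D2:**
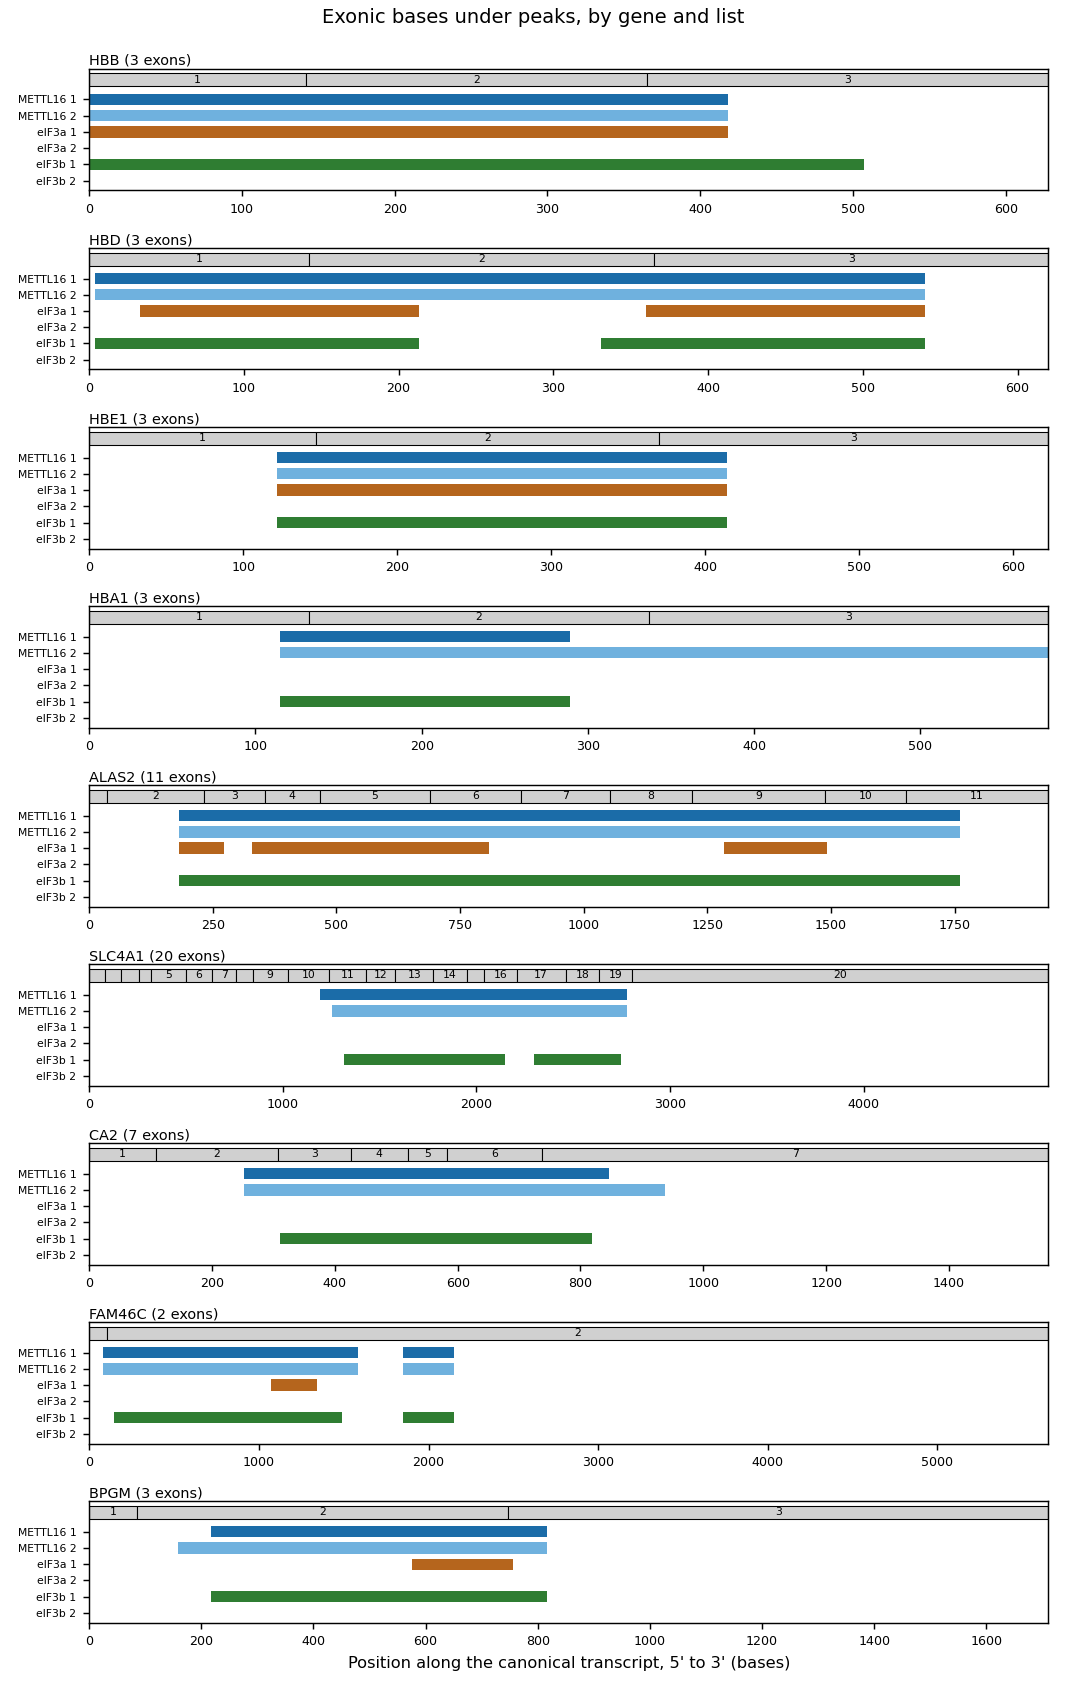
Bases under peaks (coloured bars) along the canonical transcript of each gene, in bases from its 5′ end, with exons as numbered grey boxes (the narrowest unnumbered) and 1 lane for each list. Cover in both METTL16 lists and eIF3b replicate 1 is the same for HBE1 and ALAS2 and differs most for HBA1, eIF3a replicate 1 covers the same stretch or less, and long last exons such as those of SLC4A1, FAM46C and BPGM stay mostly bare.

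HBB had the smallest p-values of the group together with HBE1. Its fold enrichment was 576 in METTL16 replicate 1, 986 in METTL16 replicate 2, 1.47 in eIF3a replicate 1 and 1700 in eIF3b replicate 1, with no peak in eIF3a replicate 2 or eIF3b replicate 2. The log10 of the p-value was -6480, -12100, -90.4 and -4300 in the same order. HBB ranked 2 by p-value among all genes of each METTL16 list, 4 in eIF3b replicate 1 and 198 in eIF3a replicate 1. By fold it ranked 1 in eIF3b replicate 1 and 7966 of 8166 genes in eIF3a replicate 1, so that the weak eIF3a enrichment was accompanied by a very small p-value. The peak was the same in both METTL16 lists and eIF3a replicate 1, chr11:5225674-5227071, and covered the whole of exons 1 and 2 (142 and 223 bases) and the first 53 of the 263 bases of exon 3. In eIF3b replicate 1 it reached further, over 142 bases of exon 3, through the end of the coding sequence and 13 bases past it.

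HBE1, the embryonic β-like chain, had folds of 208, 675, 1.4 and 672 in METTL16 replicate 1, METTL16 replicate 2, eIF3a replicate 1 and eIF3b replicate 1. The log10 p was -6380, -9800, -73.8 and -4320. The HBE1 peak was the only one with identical limits in all 4 lists, chr11:5268554-5269823. It held the whole of exon 2, the last 25 of 147 bases of exon 1 and the first 44 of 253 bases of exon 3, all of them coding, and left both untranslated regions bare. HBB and HBE1 thus had the same order of lists by p-value, with METTL16 replicate 2 first and eIF3a replicate 1 last among the lists with a peak.

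HBD, the minor adult β-like chain, reached folds of 474, 1770, 2.62 and 901 in the same 4 lists. Its smallest log10 p was -788, -1180, -18.6 and -488, far less extreme than for HBB at folds of the same order. In eIF3a replicate 1 the -18.6 belonged to a peak of 1.51-fold, and the 2.62-fold peak had -3.86. In the METTL16 lists a single peak, chr11:5232918-5234479, covered 138 of 142 bases of exon 1, all of exon 2 and 175 of 255 bases of exon 3. In the other lists HBD carried 2 peaks with a gap in exon 2, which was covered over 105 of its 223 bases in eIF3b replicate 1 and 76 in eIF3a replicate 1. The peak over the 3′ side had the larger fold in eIF3b replicate 1, at 901 against 107, whereas in eIF3a replicate 1 it had the smaller, at 1.51 against 2.62. The cover of exon 3 was 175 bases in each of the 4 lists.

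HBA1, an α chain, was weaker. Its fold was 39.7 in METTL16 replicate 1, 174 in METTL16 replicate 2 and 28.8 in eIF3b replicate 1, and it had no peak in the other 3 lists. The log10 p was -9.75, -37.2 and -6.77. The peak of METTL16 replicate 1 and eIF3b replicate 1, chr16:176795-177085, covered 17 of 132 bases of exon 1 and 157 of 205 bases of exon 2. In METTL16 replicate 2 it ran on to the transcript's end, taking in all 240 bases of exon 3, so that 37.7% of the bases covered in any of these 3 lists were covered in all of them, the smallest such share of the 9 genes.

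Of the 7 other genes of the globin list, HBA2 had a peak in both METTL16 lists (14.6-fold in replicate 1 and 114-fold in replicate 2), as did the embryonic HBZ (22.5-fold and 38.1-fold). HBQ1 had one in METTL16 replicate 2 at 7.15-fold. The fetal γ chains HBG1 and HBG2, HBM and the α-globin chaperone AHSP had none in any list, and no gene of this list had a peak in an eIF3a or eIF3b list. HBG1 and HBG2 are nearly identical, with 2 of 444 coding bases that differ, and 53.9% of the 100-base windows of HBG1 occurred in another gene. How reads with several matches were treated is not given in the sources used here, so the lack of a γ-globin peak cannot be set beside the HBE1 peak.

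ALAS2, which opens heme synthesis in red cells, had a fold of 526 in METTL16 replicate 1, 2170 in METTL16 replicate 2, 4.13 in eIF3a replicate 1 and 975 in eIF3b replicate 1. The smallest log10 p was -332, -510, -17.3 and -264. In eIF3a replicate 1 the -17.3 belonged to a peak of 3.88-fold, and the 4.13-fold peak had -3.25. By fold it ranked 1 among all genes of METTL16 replicate 2, 2 in eIF3b replicate 1 and 4 in METTL16 replicate 1, against 3884 in eIF3a replicate 1. One peak of 1580 bases in 10 blocks, chrX:55009234-55025870, was the same to the base in both METTL16 lists and eIF3b replicate 1. It began 51 bases before the end of exon 2, held exons 3 to 10 whole and ended 110 bases into exon 11, which made 89.6% of the coding sequence and no untranslated base. In eIF3a replicate 1 this stretch was broken into 3 peaks of 1.58-fold, 3.88-fold and 4.13-fold with 778 bases in all, and exons 7, 8 and 11 had none. In both METTL16 lists and eIF3b replicate 1, but not in every list, the other genes of the heme list had lower folds than ALAS2. SLC25A37, the mitochondrial iron importer, had a peak in all 6 lists, at 17.2, 23.8, 12.4, 5.07, 28.8 and 11.7 in the order METTL16, eIF3a, eIF3b with replicate 1 before 2. FECH, which inserts the iron into heme, had 12, 9.08, 2.76 and 2.8 in METTL16 replicates 1 and 2, eIF3a replicate 1 and eIF3b replicate 1, and none in eIF3a replicate 2 or eIF3b replicate 2.

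SLC4A1, the band 3 anion exchanger, had a fold of 224 in METTL16 replicate 1, 243 in METTL16 replicate 2 and 71.4 in eIF3b replicate 1, with none in the other 3 lists. The log10 p was -60, -52.5 and -18. Cover was limited to the 3′ part of the coding sequence, exons 10 to 19 of 20 in METTL16 replicate 1 and 11 to 19 in METTL16 replicate 2 and eIF3b replicate 1. Exons 1 to 9 and the last exon, whose 2149 bases are mostly 3′ untranslated, had no peak in any list. In eIF3b replicate 1 the stretch was split into 2 peaks, chr17:44254553-44258103 at 52.2-fold and chr17:44251218-44253280 at 71.4-fold, with a gap over parts of exons 16 and 17. The METTL16 lists covered 57.8% and 55.6% of the coding sequence and eIF3b replicate 1 covered 46.9%.

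CA2, a carbonic anhydrase of red cells and other tissues, had a fold of 67.5 in METTL16 replicate 1, 100 in METTL16 replicate 2 and 33 in eIF3b replicate 1, and no peak elsewhere. The log10 p was -17.2, -20.9 and -7.84. The peak ran from exon 2 to exon 7 in the METTL16 lists (595 and 685 bases) and from exon 3 to exon 7 in eIF3b replicate 1 (507 bases), and METTL16 replicate 2 alone reached the 3′ untranslated region, by 79 bases. BPGM had folds of 65.4, 85.3, 1.53 and 22.7 in METTL16 replicates 1 and 2, eIF3a replicate 1 and eIF3b replicate 1, with a log10 p of -232, -294, -3.81 and -72.7. Its peaks joined exons 2 and 3 in each of these lists, over 598, 657, 180 and 598 bases, all coding. METTL16 replicate 1 and eIF3b replicate 1 gave the same limits, chr7:134661580-134678921, and the 785 bases of the 3′ untranslated region had none.

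FAM46C had 2 peaks in each METTL16 list and in eIF3b replicate 1. The stronger one had a fold of 528 in METTL16 replicate 1, 1690 in METTL16 replicate 2 and 391 in eIF3b replicate 1, with a log10 p of -245, -375 and -105, and eIF3a replicate 1 had a single peak of 2.09-fold at a log10 p of -9.81. In the METTL16 lists it spanned chr1:117606132-117624317 and held the whole coding sequence with 273 bases beyond it. In eIF3b replicate 1 it was shorter, at 1348 bases against 1498, and lay in exon 2 alone. The second peak, chr1:117624586-117624886, lay in the 3′ untranslated region and had the same 301 bases in the 3 lists, with folds of 189, 276 and 48.1. It was the only peak of the 9 genes that held no coding base, and 3′ untranslated cover came to 13.2% of its 4345 bases in the METTL16 lists.

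Of the bases covered in either METTL16 list or eIF3b replicate 1, the share covered in all 3 was 100% for HBE1 and ALAS2, 91.7% for FAM46C, 91% for BPGM, 82.4% for HBB, 81.2% for SLC4A1, 78% for HBD, 74% for CA2 and 37.7% for HBA1. Every base covered in eIF3a replicate 1 lay within the peaks of each METTL16 list. Of the 41 peaks, 20 overlapped a peak of the other replicate of the same protein, and these were the 20 METTL16 peaks. Over all annotated transcripts of the 9 genes, peaks covered 35.9% ± 1.23 (SD, n = 2) of the exonic bases in the METTL16 lists. In the eIF3a lists the share was 10.6% in replicate 1 and 0 in replicate 2, with an SD of 7.51 points, and in the eIF3b lists it was 32.4% and 0, with an SD of 22.9 points, so that the SD between replicates exceeded the mean for both proteins.

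**Figure D3:**
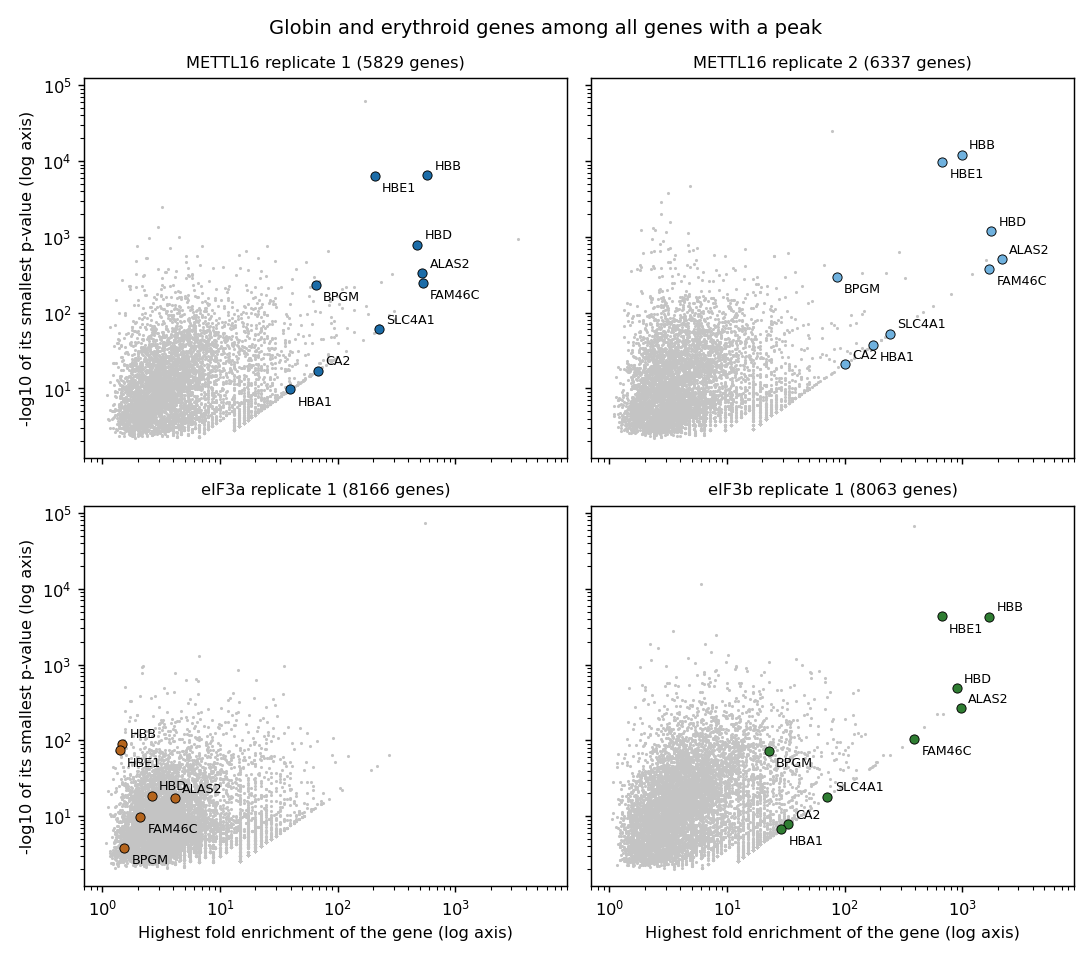
Highest fold enrichment of each gene (horizontal, log axis) against −log10 of its smallest p-value (vertical, log axis) in the 4 lists with peaks on these genes, with all genes in grey and the globin and erythroid genes coloured and named. HBB, HBD, HBE1, ALAS2 and FAM46C stand at the upper right in both METTL16 lists and eIF3b replicate 1, whereas in eIF3a replicate 1 HBB and HBE1 lie at the left edge with folds of 1.47 and 1.4.

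The same lists were then read for other genes of the red cell. A panel of 78 erythroid genes other than the 9 was drawn up by function. Of these, 35 (44.9%) had a peak in METTL16 replicate 1, 37 (47.4%) in METTL16 replicate 2, 29 (37.2%) in eIF3a replicate 1, 17 (21.8%) in eIF3a replicate 2, 30 (38.5%) in eIF3b replicate 1 and 26 (33.3%) in eIF3b replicate 2. The share was above that of all protein-coding genes in both METTL16 lists and below it in the other 4. The median highest fold of the panel was 4.5, 7.15, 3.88, 2.71, 3.63 and 4.45 in the same order, against 4.06, 4.24, 4, 3.62, 4.64 and 4 over all genes. There were 31 panel genes with no peak in any list, 13 with one in all 6, and 5 with a peak in both METTL16 lists and eIF3b replicate 1 but in neither eIF3a replicate 2 nor eIF3b replicate 2. Among the 20056 protein-coding genes, 9326 had no peak in any list and 2715 had one in all 6. The last pattern was found in 347 of them (1.73%). No test of the panel against other genes was made.

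By function, peaks were found in METTL16 replicates 1 and 2 for 7 and 8 of 12 heme synthesis genes, 7 and 7 of 21 membrane genes, 6 and 5 of 12 transcription factors, 3 and 4 of 7 metabolic genes, 8 and 8 of 15 late erythroid genes and 2 and 2 of 4 receptors. In eIF3b replicate 1 the counts were 7, 5, 6, 1, 9 and 2, and in eIF3b replicate 2 they were 5, 6, 4, 1, 8 and 2. In eIF3a replicates 1 and 2 they were 4 and 2, 8 and 4, 4 and 3, 2 and 1, 8 and 6, and 3 and 1. The shares by group ran from 33.3% to 58.3% in METTL16 replicate 1 and from 33.3% to 66.7% in METTL16 replicate 2. Among all protein-coding genes they were 28.9% and 31.4%. For eIF3a replicates 1 and 2 the groups ran from 28.6% to 75% and from 14.3% to 40%, against 40.4% and 25.9%. For eIF3b replicates 1 and 2 they ran from 14.3% to 60% and from 14.3% to 53.3%, against 39.9% and 37.5%. The membrane skeleton gene EPB41 had folds of 10.8, 7.91, 2.57, 2.71, 6.25 and 5.87 in the order METTL16, eIF3a, eIF3b with replicate 1 before 2. The ubiquitin ligase gene UBE2O had 15, 12.9, 5.36, 3.03, 8.27 and 6.77, and the GATA cofactor ZFPM1 had 13.7, 25, 6.82, 2.88, 9.44 and 4.5. Each of these was highest in a METTL16 list, but other panel genes with a peak in all 6 lists were not. SLC2A1 and DMTN were highest in eIF3a replicate 1, at 22.3 and 17.4. FOXO3 was highest in eIF3a replicate 2, at 43.2, and ADD1 in eIF3b replicate 1, at 12.4. All were named for having a peak in the most lists, so their presence in all 6 is fixed by that choice.

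Of 11 defining erythroid markers outside the 9 genes, 9 had no peak in any list, among them HBG1, HBG2, AHSP, EPB42, the transcription factors GATA1 and KLF1, RHAG and HEMGN. HBA2, also among the 11, had the peaks given above. Of 10 hepatocyte markers, 7, 9, 6, 2, 5 and 6 had a peak in the 6 lists. The shares were 70%, 90%, 60%, 20%, 50% and 60%. Those of all protein-coding genes were 28.9%, 31.4%, 40.4%, 25.9%, 39.9% and 37.5%. ALB had a peak in METTL16 replicate 2 alone, at 2.75-fold, and only TTR had none in any list. The folds of the hepatocyte markers were lower than those of the globins in the METTL16 lists. They were 3.15 and 2.91 for the protease inhibitor SERPINA1 and 4.69 and 2.71 for the transcription factor HNF4A. A peak marks enrichment over input and not the level of an RNA, so these counts do not check the cell type, which is HepG2 for every sample.

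Platelet and leukocyte markers were read in the same way. Of 5 platelet markers, 3 had a peak in each METTL16 list and in eIF3b replicate 1, 2 in eIF3a replicate 1, and 0 in eIF3a replicate 2 and eIF3b replicate 2. The integrin ITGA2B had folds of 56.3, 162, 9.42 and 75.5 in METTL16 replicates 1 and 2, eIF3a replicate 1 and eIF3b replicate 1, and the platelet tubulin TUBB1 had 26.9, 110, 22.3 and 31.6 in the same lists. GP9 had 41.1, 21.4 and 13.7 in the METTL16 lists and eIF3b replicate 1. The platelet chemokines PPBP and PF4 had no peak in any list. Like the 9 globin and erythroid genes, these 3 platelet genes were found in eIF3b replicate 1 and either METTL16 list but not in eIF3a replicate 2 or eIF3b replicate 2. That pattern was found in 1.73% of protein-coding genes, and the part of the platelet genes in the result was not tested. Of 9 leukocyte markers, 4, 2, 2, 0, 2 and 2 had a peak in the 6 lists. The share of 44.4% in METTL16 replicate 1 was above the 28.9% of all protein-coding genes, and the shares in the other lists were below theirs. LYZ and CSF3R had a peak in 5 lists each. PTPRC (14.6-fold) and CD79A (38.4-fold) had one in METTL16 replicate 1 alone. CD3E, MS4A1, S100A8, S100A9 and NKG7 had none in any.

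**Figure D4:**
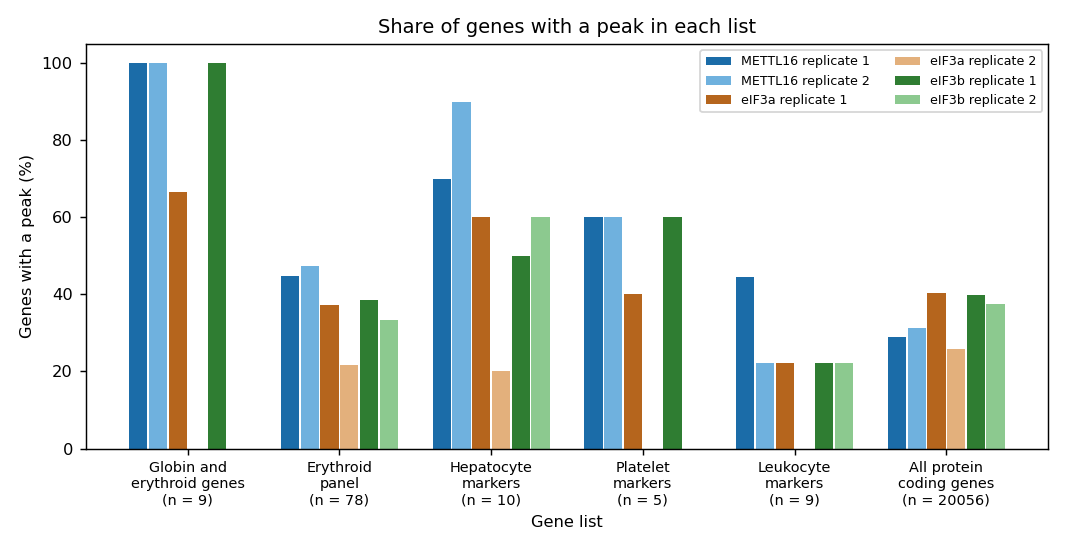
Share of genes with a peak (percent, vertical axis) in each of the 6 lists (coloured bars) for the 9 globin and erythroid genes, the 78 other erythroid genes, 3 sets of cell type markers and all 20056 protein-coding genes. The 9 genes, which were chosen on these lists, are at 100% in both METTL16 lists and eIF3b replicate 1 and at 0 in eIF3a replicate 2 and eIF3b replicate 2, and the platelet markers are at 60%, 60% and 60% and at 0 in the same lists.

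Among all gene names, 350 had a peak in both METTL16 lists and eIF3b replicate 1 and none in eIF3a replicate 2 or eIF3b replicate 2, and 182 of these also had one in eIF3a replicate 1. The lowest of a gene's 3 folds had a median of 2.56 over the 350. It was at least 20 in 28 genes, and the 9 globin and erythroid genes were among those 28. The pattern and the line of 20 were chosen after the values of the 9 genes were seen. That all 9 pass is therefore no result about them. Among the 9, this lowest fold ran from 22.7 for BPGM to 576 for HBB.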

How the data were processed

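RIP-seq peaks of HepG2 cells were taken from 6 deposited lists, 2 for each immunoprecipitated protein. Per the labels and the study's methods, ribosomal RNA was depleted and stranded libraries were made. STAR was the authors' aligner, GRCh38 their genome build and exomePeak, left at its default settings, their peak caller. Versions are not given in the sources used here. The names of all 6 lists say Flag, whereas the labels give an eIF3a antibody for the eIF3a samples. In the deposited lists each peak has a p-value, log10 values of that p-value and of its false discovery rate (held here as a score), a fold enrichment (a ratio of RIP to input) and the positions of its exonic blocks. The 6 input samples have no list of their own used here. Because the lists hold no counts, the depth per sample and the precision of a single fold are unknown, and any p-value is the authors' own for 1 sample. The 2 lists of a protein are biological replicates per the methods.

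A gene's value was its highest fold and its smallest p-value over its peaks in a list. FAM46C was matched to TENT5C through RefSeq. Exonic blocks were intersected with exons of GENCODE release 44, on the canonical transcript and on the union of transcripts, in Python 3.11.15 with pandas 2.3.3 and numpy 2.4.6. Figures were drawn with matplotlib 3.10.9. Windows of 50 and 100 bases of each canonical transcript were looked up in all GENCODE transcripts, leaving out genes annotated over the same place and strand. The interval steps were tested on simulated data. The 9 genes, the panel, the marker lists and the readouts were chosen with earlier results of these data known. Besides the 9 genes, the text names each other globin, at most 4 genes of each panel list (those with a peak in the most lists, then the smallest p-value) and defining markers, and some genes of these lists are counted but not reported singly here. Alternatives were a fold of at least 4, the 5000 peaks of each list with the smallest p-values, a peak in either replicate, each list left out in turn, the canonical exons, and an overlap of at least 50% of a peak.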

Additional observations from a re-analysis of the deposited data

How the results depend on the processing

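All 9 genes had a peak in both METTL16 lists under each of the alternatives run, and none had one in all 6 lists under any. Neither outcome speaks to stability. The 9 were chosen on peaks in these lists. As eIF3a replicate 2 and eIF3b replicate 2 both hold no peak on them, leaving 1 list out cannot raise the count in all lists. Of 54 alternatives over 11 results, 40, those just named included, left the value within 1.5 times the main count or within 1 SD, and 14 moved it. With 2 lists for each protein, leaving 1 out cannot move a mean cover by more than 1 SD, so those alternatives say nothing of stability: the cover ran from 0 to 10.6% for eIF3a and from 0 to 32.4% for eIF3b. The mean eIF3a cover of 5.31% fell to 0.21% at a fold of at least 4, which is also within its SD. In the eIF3a lists, the 0 genes with a peak in both became 6 with a peak in either, and 0 to 6 with 1 list left out, the 6 being without eIF3a replicate 2. In the eIF3b lists, 0 became 9 with a peak in either, and 0 to 9 with 1 list left out, the 9 being without eIF3b replicate 2. Of the 78 panel genes, the 28 with a peak in both METTL16 lists became 17 at a fold of at least 4, 14 over the 5000 peaks with the smallest p-values and 44 with a peak in either list. The 17 in both eIF3a lists became 3, 7 and 29, and 17 to 29 with 1 list left out, the 29 being without eIF3a replicate 2. The 24 in both eIF3b lists became 7 and 10 at the stricter settings. On canonical exons the METTL16 cover rose from 35.9% to 42.5%, as fewer bases were counted. Of the 41 peaks, 19 overlapped one of the other replicate by at least 50%, against 20 by at least 1 base. No paired analysis was possible because the lists hold no counts of the RIP or input samples. With 2 lists for each protein and no counts, how many reads a gene without a peak had is unknown, and its absence from a list is no measure of binding.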

Other observations

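Of the 28 genes whose fold was at least 20 in both METTL16 lists and eIF3b replicate 1 with no peak in eIF3a replicate 2 or eIF3b replicate 2, those outside the 9 globin and erythroid genes were looked up after their values were seen. The transglutaminase gene TGM7 had folds of 291, 1590 and 608 in METTL16 replicate 1, METTL16 replicate 2 and eIF3b replicate 1, the highest outside the 9 by the lowest of the 3 values. PABPC3 had 137, 325 and 150, and the interferon-induced RSAD2 had 223, 565 and 121. NRGN had 110, 1210 and 474, and PLEK, which encodes pleckstrin of platelets and leukocytes, had 94, 245 and 97.5. The list also held the platelet integrin genes ITGA2B and ITGB3 and the tubulin TUBB1. No explanation of these values was tested.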
